A study of Homo sapiens with 36 samples.

Results

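HCT-116 is an established human colorectal carcinoma line. Its FBXW7-/- derivative (KO), made with Cas9 and bought from a company together with its wild-type counterpart (WT), was compared with WT after transfection of esiRNA against HDAC4 and treatment with oxaliplatin (OXPT). The comparison takes the 3 libraries labelled KO with esiHDAC4 for 48 h and 50 µM OXPT for the last 24 h, and the 3 libraries labelled WT with OXPT of the same dose and time, 6 of the 36 libraries of the series. Each library is polyA RNA-seq, given as whole read counts per gene.

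The esiRNA of the WT libraries is not settled, because the title of each gives the control esiRNA (esiCT) and the treatment entry gives esiHDAC4. They are called WT OXPT here. Whether the KO line is 1 clone is not stated in the sources used here, so differences of the line and of the FBXW7 genotype cannot be told apart. The other groups used below are KO with esiCT and OXPT, KO with esiCT untreated, KO with esiHDAC4 untreated, and WT untreated (title esiCT, treatment entry esiHDAC4 again), with 3 libraries each. KO cells with the class IIa HDAC degrader #11, untreated or with OXPT (3 libraries each), enter only the shared fit and the ranges over KO libraries. The labels do not settle the dose of #11. The comparison addresses how OXPT-treated KO cells with silenced HDAC4 differ from OXPT-treated WT cells.

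FBXW7 is the subunit with which an SCF ubiquitin ligase recognises phosphorylated proteins such as MYC, cyclin E, JUN and NOTCH and marks them for the proteasome, and it is mutated in a fraction of colorectal cancers. HDAC4 is a class IIa histone deacetylase. It has little catalytic activity of its own and represses genes by bringing a corepressor complex with HDAC3 to transcription factors such as those of the MEF2 family. OXPT is a platinum drug that crosslinks DNA and is part of the standard chemotherapy of colorectal cancer.

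The 6 libraries held between 13477253 and 19435104 counts on genes, and 9.06% to 13.4% of their reads were unmapped. Mitochondrial transcripts took 5.84% to 14.3% of the counts. Replicate 3 of both groups had the lowest mitochondrial share, 6.37% in KO esiHDAC4 OXPT and 5.84% in WT OXPT, and the fewest genes with a count, 24397 and 24758. Same-numbered libraries deviated together from their group means, and so did replicates 1 and 2 across numbers. Among the other libraries used below, KO esiCT OXPT replicate 3 stood apart, with 22.3% unmapped reads, 22868 genes with a count and a ribosomal protein share of 17.2%. The main values that rest on it are given without it as well. The epithelial genes EPCAM, CDH1, KRT8, KRT18, KRT19 and CDX2 were present in all 6 libraries, with EPCAM between 234 and 360 CPM (counts scaled to a common library size, as edgeR's CPM with TMM factors). The colon genes CDX1 and CDH17 stood at 0 CPM in all 6 libraries, and VIL1, LGALS4 and CEACAM5 stayed below 1 CPM. Of 10 genes that mark fibroblasts, leukocytes and endothelium, 9 stayed below 1 CPM in all 6, and COL1A1 stood between 41.4 and 66.4 CPM.

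HDAC4, the silenced gene, was lower in KO esiHDAC4 OXPT. Its level was 4.13, 3.33 and 4.19 CPM in the 3 KO libraries (68, 55 and 51 counts) and 8.49, 8.44 and 10.0 CPM in the 3 WT libraries (157, 126 and 137 counts). The groups did not overlap, and the log2 fold change was −1.21 ± 0.25 (SE, n = 3 per group; adjusted p = 0.0434). The adjusted p ranged from 0.00251 to 0.552 over the alternatives, it was 0.0145 with the replicate number as a block, and the call was lost in 13 of 24 fits that each leave out 1 library, among them those without any 1 of these 6 libraries. KO esiCT OXPT lay between both groups, at 6.28, 5.71 and 7.50 CPM, with a log2 difference from WT OXPT of −0.47 (adjusted p = 0.956) and from KO esiHDAC4 OXPT of 0.74. Each WT OXPT library held more HDAC4 transcript than each KO esiCT OXPT library.

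FBXW7 was measured at 55.1, 51.1 and 28.5 CPM in KO esiHDAC4 OXPT and at 42.3, 33.9 and 13.5 CPM in WT OXPT (log2 fold change 0.59 ± 0.30, adjusted p = 0.897). The study's supplement describes a short deletion found by Sanger sequencing. Its position was not used here, and counts over the whole gene do not check it.

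Of 12353 genes tested, 28 passed the call rule, 0.227%. It asks for a fold change above 1.5 together with a p below 0.05 in edgeR's quasi-likelihood test after Benjamini-Hochberg adjustment. Of these, 27 were lower in KO esiHDAC4 OXPT (0.219% of the genes tested) and 1, SPATC1L, was higher. At an unadjusted p under 0.05 the count was 716, with 219 higher and 497 lower. All 28 called genes had non-overlapping groups, as had 8.1% of the genes tested. With the replicate number as a block, 64 genes were called, 56 lower and 8 higher, and the 28 were all among them. The direction of the calls depended on the fit. With the compared groups alone 0 genes were called, and with these and the block 389, of which 214 were higher and 175 lower.

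**Figure D1:**
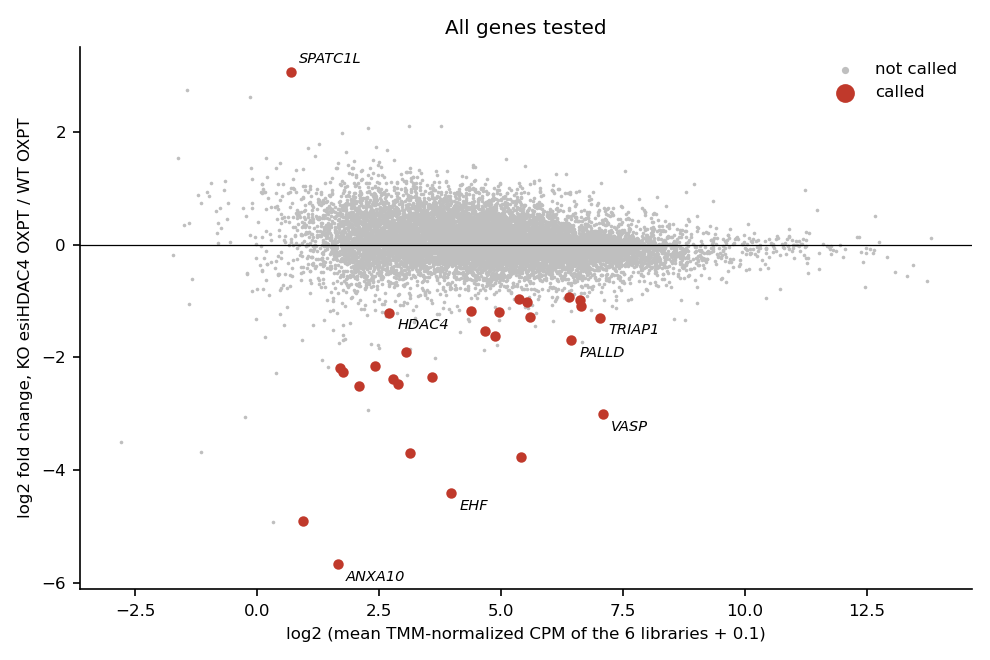
Log2 fold change of KO esiHDAC4 OXPT over WT OXPT (vertical axis) against the log2 of the mean TMM-normalized CPM of the 6 libraries plus 0.1 (horizontal axis), 1 point per gene tested. The 28 called genes are in red; 27 lie below 0, with ANXA10 lowest at −5.67, and SPATC1L lies above at 3.07.

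ANXA10, a member of the annexin family, had the largest fold change. It had 0, 5 and 0 counts in KO esiHDAC4 OXPT against 55, 113 and 102 in WT OXPT, levels of 0, 0.303 and 0 CPM against 2.97, 7.57 and 7.46 CPM. The transcript was thus near absent in KO. The ratio of the summed counts, scaled by depth, was 51.8 with an exact 95% interval of 21.9 to 161 that covers counting error only (fitted log2 fold change −5.67 ± 0.74, adjusted p = 0.000781). APOBEC3G, a cytidine deaminase that restricts retroviruses, had 2, 2 and 1 counts in KO and 82, 35 and 52 counts in WT, a ratio of 32.4 with an interval of 13.6 to 101 (−4.90 ± 0.75, adjusted p = 0.00318). SPATC1L, named for its likeness to a sperm centriole protein, was the gene called in the other direction, with 44, 39 and 38 counts in KO and 7, 4 and 4 in WT. The ratio was 8.42 with an interval of 4.91 to 15.5 (3.07 ± 0.45, adjusted p = 0.00293).

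The promoters of ANXA10, EHF and SPATC1L, the first called genes in each direction with an entry in RefSeq's GRCh38.p14 table, are shown because they are the sequences at the start sites of the genes with the largest differences. Each runs 5′ to 3′ on the gene's strand, from 250 bases before to 50 bases after the start, and capitals mark matches on either strand to the TATA box TATAAA, the AP-1 motif TGANTCA, the E-box CACGTG, the CRE motif TGACGTCA or the GC box GGGCGG.
ANXA10, chr4:168092287-168092586, plus strand: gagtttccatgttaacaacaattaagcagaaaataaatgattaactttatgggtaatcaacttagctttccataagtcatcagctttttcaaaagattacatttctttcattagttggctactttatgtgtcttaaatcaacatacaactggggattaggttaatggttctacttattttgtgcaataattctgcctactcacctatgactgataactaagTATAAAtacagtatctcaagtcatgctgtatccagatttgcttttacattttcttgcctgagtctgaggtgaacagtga
EHF, chr11:34624007-34624306, plus strand: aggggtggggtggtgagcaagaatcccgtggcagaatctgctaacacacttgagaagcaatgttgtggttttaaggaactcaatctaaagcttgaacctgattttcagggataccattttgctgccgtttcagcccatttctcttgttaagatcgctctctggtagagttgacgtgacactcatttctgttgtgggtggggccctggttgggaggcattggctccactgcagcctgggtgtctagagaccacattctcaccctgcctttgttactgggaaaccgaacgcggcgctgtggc
SPATC1L, chr21:46184410-46184709, minus strand: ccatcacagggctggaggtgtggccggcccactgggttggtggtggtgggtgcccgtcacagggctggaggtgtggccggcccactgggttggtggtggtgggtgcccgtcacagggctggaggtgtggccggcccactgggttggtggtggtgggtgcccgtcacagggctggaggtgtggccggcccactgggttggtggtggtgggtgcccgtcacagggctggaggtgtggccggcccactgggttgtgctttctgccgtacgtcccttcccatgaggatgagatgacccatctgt

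The ANXA10 window held 0 CG dinucleotides and 1 TATAAA, which begins 29 bases before the start. The EHF window held 8 CG dinucleotides and the SPATC1L window 11, neither with a match to the 5 motifs. The SPATC1L window is a tandem repeat, in which 1 stretch of 40 bases occurs 4 times without overlap. Over the 22 called genes with a promoter entry, the TATA box was in 13.6%, the AP-1 motif in 9.09%, the E-box in 0, the CRE motif in 0 and the GC box in 40.9%. Over all 27195 promoters of the table these shares were 12%, 7.73%, 7.45%, 1.98% and 44.7%. A match is a run of letters, not a measured site.

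VASP, which promotes the growth of actin filaments at the cell edge, stood at 20.5, 29.0 and 41.4 CPM in KO esiHDAC4 OXPT and at 154, 234 and 340 CPM in WT OXPT (−3.00 ± 0.40, adjusted p = 0.000781). PALLD, an actin crosslinking protein, was measured at 56.3, 33.1 and 33.5 CPM against 126, 172 and 98.5 CPM (−1.69 ± 0.31, adjusted p = 0.0191). KRT13, a keratin of stratified epithelia, stood at 1.28, 0.969 and 1.15 CPM against 5.73, 4.42 and 6.29 CPM (−2.27 ± 0.40, adjusted p = 0.0122). DPEP1, a membrane dipeptidase of the kidney and gut, was at 1.70, 0.969 and 0.986 CPM against 5.41, 22.8 and 20.03 CPM (−3.70 ± 0.55, adjusted p = 0.00296), with WT replicate 1 well below the other WT libraries but above all KO libraries. PODXL2, a sialomucin of the cell surface, FABP6, the bile acid binding protein of the ileum, HTR7, a serotonin receptor, and SLC43A3, a nucleobase transporter, had log2 fold changes of −2.15, −2.38, −2.34 and −2.47. C6orf141 had −1.90.

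The transcription factor genes EHF, RUNX2, MSX2 and PPARG were also lower in KO esiHDAC4 OXPT. EHF, an ETS factor of epithelial cells, stood at 1.22, 1.63 and 1.40 CPM in KO and at 40.6, 39.9 and 9.72 CPM in WT (−4.40 ± 0.48, adjusted p = 0.000145). WT replicate 3 was low for EHF, but its level was still above every KO library. RUNX2, the master regulator of bone formation, had a log2 fold change of −2.18 ± 0.43 (adjusted p = 0.0259). The homeobox gene MSX2 (−1.63 ± 0.26, adjusted p = 0.00491) and the nuclear receptor PPARG (−1.53 ± 0.27, adjusted p = 0.0122), which lie outside the 15 lower genes of the naming rule and were chosen after their values were seen, were lower too.

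**Figure D2:**
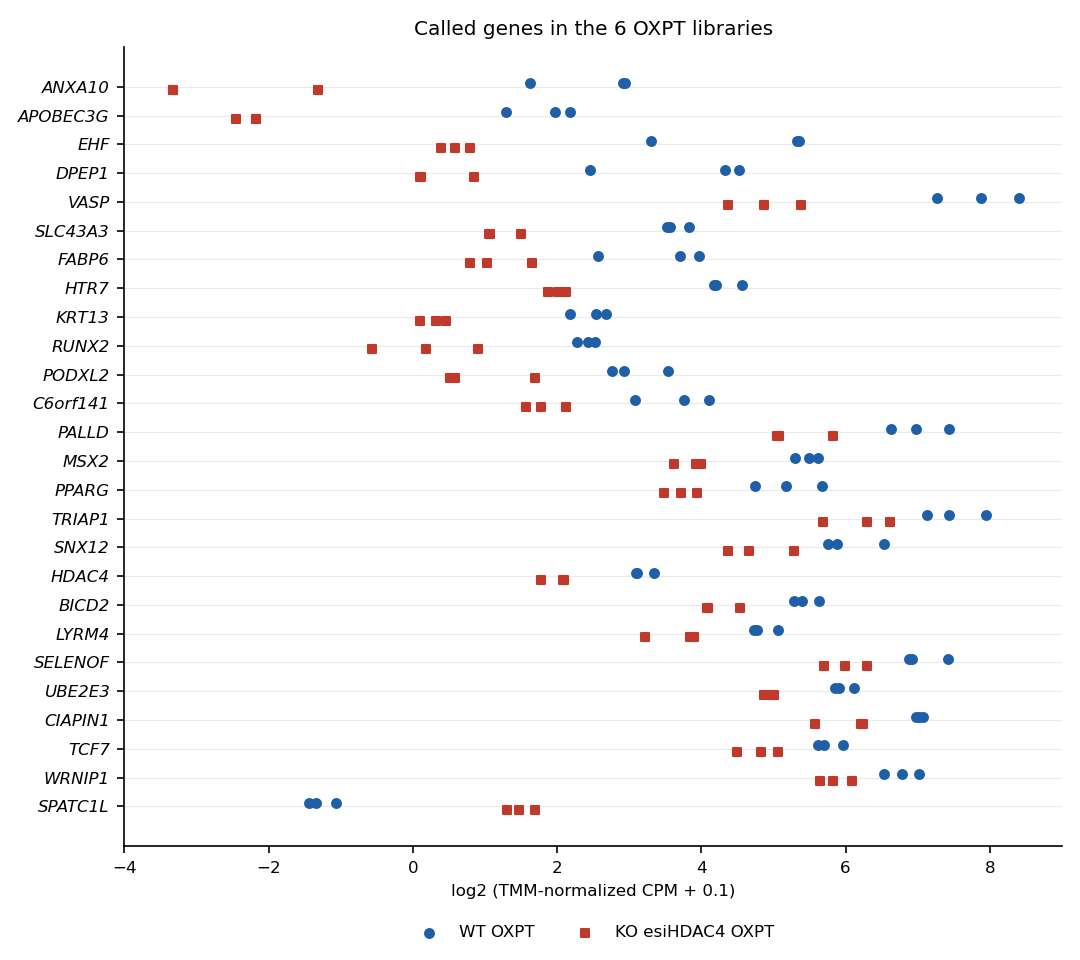
Level of 26 of the 28 called genes in the 6 libraries, as log2 of TMM-normalized CPM plus 0.1; blue circles are the 3 WT OXPT libraries and red squares the 3 KO esiHDAC4 OXPT libraries. The colours do not overlap in any row, and red lies to the left of blue in 25 of 26 rows.

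The remaining called genes had smaller differences. TRIAP1, TCF7 and HDAC4 are named as list members, and the others were chosen after their values were seen. TRIAP1, a small p53 target that limits apoptosis and takes part in lipid transfer in mitochondria, stood at 51.6, 98.3 and 78.6 CPM in KO esiHDAC4 OXPT and at 140, 172 and 248 CPM in WT OXPT (−1.29 ± 0.25, adjusted p = 0.0205). CIAPIN1, of the cytosolic iron-sulfur cluster pathway, stood at 47.5, 74.4 and 75.8 CPM against 129, 126 and 134 CPM (−0.98 ± 0.20, adjusted p = 0.0463). LYRM4, which works with the cysteine desulfurase of mitochondrial iron-sulfur clusters, stood at 9.18, 14.8 and 14.2 CPM against 27.1, 26.5 and 33.2 CPM (−1.18 ± 0.22, adjusted p = 0.0205). TCF7, a transcription factor of the Wnt pathway, was at 22.4, 28.4 and 33.2 CPM against 52.1, 48.8 and 62.1 CPM (−0.96 ± 0.18, adjusted p = 0.0191). WRNIP1, an ATPase at stalled replication forks, was at 50.1, 56.8 and 68.0 CPM against 92.2, 110 and 130 CPM (−0.92 ± 0.16, adjusted p = 0.00911). SNX12, a sorting nexin, BICD2, a dynein adaptor, SELENOF, a selenoprotein of the endoplasmic reticulum, and UBE2E3, a ubiquitin-conjugating enzyme, had log2 fold changes of −1.28, −1.19, −1.08 and −1.02. The calls of SNX12, BICD2 and CIAPIN1 were lost in 17, 15 and 18 of the 24 fits with 1 library dropped, and those of the other genes of this paragraph in 3 each, HDAC4 apart.

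KO esiCT OXPT was compared with the same WT libraries, and the grouping of genes by it was made after their values were seen. This comparison had 16 calls (0.13%) and shares the WT libraries, so its values are set side by side and not counted as support. For 17 of the 28 genes the difference from WT OXPT was at least 1 in log2 with esiCT as well: ANXA10 had −5.55 with esiCT and −5.67 with esiHDAC4, EHF −4.12 and −4.40, VASP −3.06 and −3.00, and SPATC1L 3.03 and 3.07. For 8 genes the difference with esiCT was below 0.5 in size. They are TRIAP1, SNX12, HDAC4, BICD2, SELENOF, CIAPIN1, TCF7 and WRNIP1, with log2 fold changes from −0.47 to −0.02 with esiCT and from −1.29 to −0.92 with esiHDAC4. TCF7, as an example, stood at 56.3, 55.2 and 48.9 CPM in KO esiCT OXPT, all inside the range of the WT OXPT libraries. PPARG, LYRM4 and UBE2E3 lay between, at −0.999, −0.97 and −0.74 with esiCT. Without KO esiCT OXPT replicate 3 all 17 genes still had a difference of at least 1, and 7 of the 8 one below 0.5, the exception being HDAC4 at −0.59.

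The direct comparison of KO esiHDAC4 OXPT with KO esiCT OXPT had 0 calls (0.0%) by edgeR, with 380 genes at an unadjusted p under 0.05 and 13 calls by DESeq2, all lower in KO esiHDAC4. Without KO esiCT OXPT replicate 3 edgeR had 0 calls and 243 genes at that unadjusted p. The lowest adjusted p by edgeR was 0.466, for TCF7 (log2 fold change −0.94), which had 0.713 without that library. The DESeq2 calls comprised TCF7, WRNIP1, TRIAP1, SNX12 and CIAPIN1 of the 28 genes, and IL27RA, KDM2B, UBE2R2, STAT3, PURA, CRTAP, CRTC3 and C2orf68, named after their values were seen. HDAC4 itself had −0.74 (adjusted p = 1.0 by edgeR). The sets of 8 and 17 genes were chosen by their differences from WT OXPT with either esiRNA. The direct comparison is the gap between those differences, so its values for these sets follow largely from that choice. They are not counted as support. The 8 genes that stood near WT with esiCT ran from −1.12 to −0.71, each with an unadjusted p under 0.05, and from −0.99 to −0.62 without KO esiCT OXPT replicate 3. Of the 17 genes that stood apart from WT with esiCT, 1 had an unadjusted p under 0.05, C6orf141 (−0.85). Without KO esiCT OXPT replicate 3 C6orf141 had −0.59 (unadjusted p = 0.130 by edgeR), and 1 of the 17 genes had an unadjusted p under 0.05.

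The untreated KO libraries stand on neither side of the comparisons among OXPT groups, although they share the fit and its estimate of the spread, and give a second measurement of the silencing. KO esiHDAC4 untreated against KO esiCT untreated had 1 call (0.0081%), TCF7, at 22.8, 24.99 and 30.9 CPM with esiHDAC4 and 61.9, 56.9 and 53.8 CPM with esiCT (−1.13 ± 0.18, adjusted p = 0.0398). With the replicate block 4 genes were called, by DESeq2 34, and with 1 library dropped the count was 0 in 18 of 24 fits. All 8 genes that stood near WT with esiCT were lower after esiHDAC4 without OXPT too, with an unadjusted p under 0.05 each and log2 fold changes from −1.25 (SNX12) to −0.72 (BICD2), whereas 2.27% of all genes tested were lower at that p. HDAC4 had −0.82 ± 0.24, with 8.94, 8.80 and 14.9 CPM after esiHDAC4 and 18.4, 14.0 and 24.9 CPM after esiCT, so that 1 library overlapped. The log2 fold changes of other genes were TRIAP1 −1.15 ± 0.25, WRNIP1 −0.92 ± 0.16, CIAPIN1 −1.02 ± 0.20 and SELENOF −0.89 ± 0.21. Their adjusted p was 0.183, 0.0621, 0.183 and 0.256, and that of HDAC4 was 0.561, so none of these was called. Of the 17 genes that differed from WT with either esiRNA, 0 had an unadjusted p under 0.05 in this comparison and 10 had a log2 fold change below 0. DPEP1 had the largest value among them, 1.27 ± 0.62 (unadjusted p = 0.0535, adjusted p = 1.0).

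**Figure D3:**
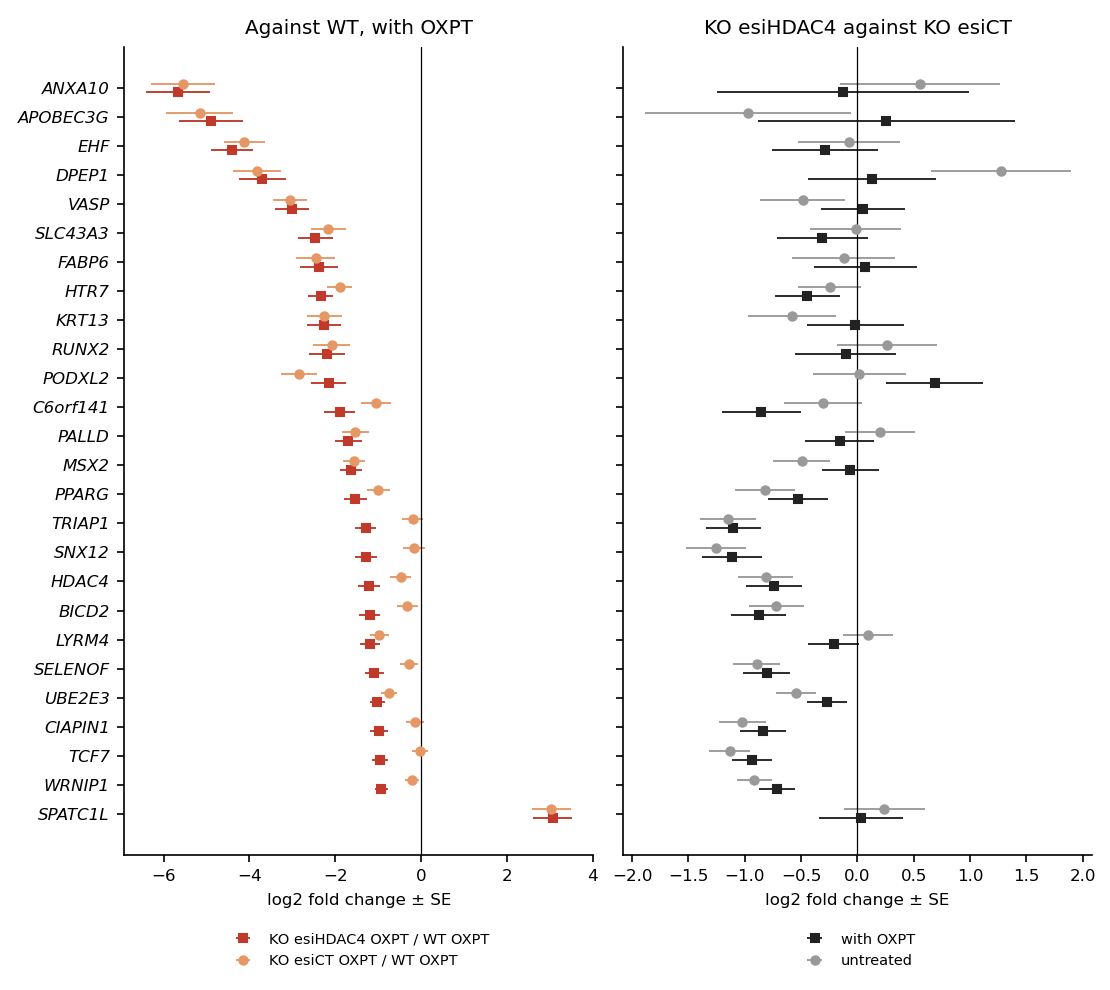
Log2 fold change with its SE for 26 of the 28 called genes. Left, KO esiHDAC4 OXPT (red squares) and KO esiCT OXPT (orange circles), each over the same WT OXPT libraries; right, KO esiHDAC4 over KO esiCT with OXPT (black squares) and untreated (grey circles). From ANXA10 to MSX2 both left markers lie at −1.04 or below, with C6orf141 and PODXL2 furthest apart, while for TRIAP1, SNX12, BICD2, SELENOF, CIAPIN1, TCF7 and WRNIP1 the orange marker lies near 0 and both right markers lie between −1.25 and −0.71. The black squares are the gap between the left markers, by which these genes were grouped.

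The difference between KO esiHDAC4 and WT was also measured without OXPT, in 6 other libraries. There 106 genes were called (0.858%), 98 lower (0.793%) and 8 higher, and with the replicate block 308. All 28 genes called with OXPT had the same sign without it, where 73.4% of all genes tested had the same sign, and 25 of them were called there too. Among those not called there were BICD2 (−0.75, adjusted p = 0.159) and SELENOF (−0.84, adjusted p = 0.0633). In the other direction, the 106 genes called without OXPT all had the same sign with OXPT, and 84 of them an unadjusted p under 0.05.

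The test of whether the difference itself changed with OXPT had 0 calls by edgeR and 0 by DESeq2, with 127 genes at an unadjusted p under 0.05 by edgeR. VASP had an interaction of 1.30 (unadjusted p = 0.0225, adjusted p = 1.0), with 12.8, 12.2 and 16.2 CPM in KO esiHDAC4 untreated and 140, 152 and 524 CPM in WT untreated, the last of which stands apart from the other WT libraries. TRIAP1 was at 17.1, 25.9 and 22.9 CPM in KO esiHDAC4 untreated and at 49.7, 43.7 and 64.9 CPM in WT untreated, below the OXPT libraries in both lines, and its interaction was −0.03 (adjusted p = 1.0).

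**Figure D4:**
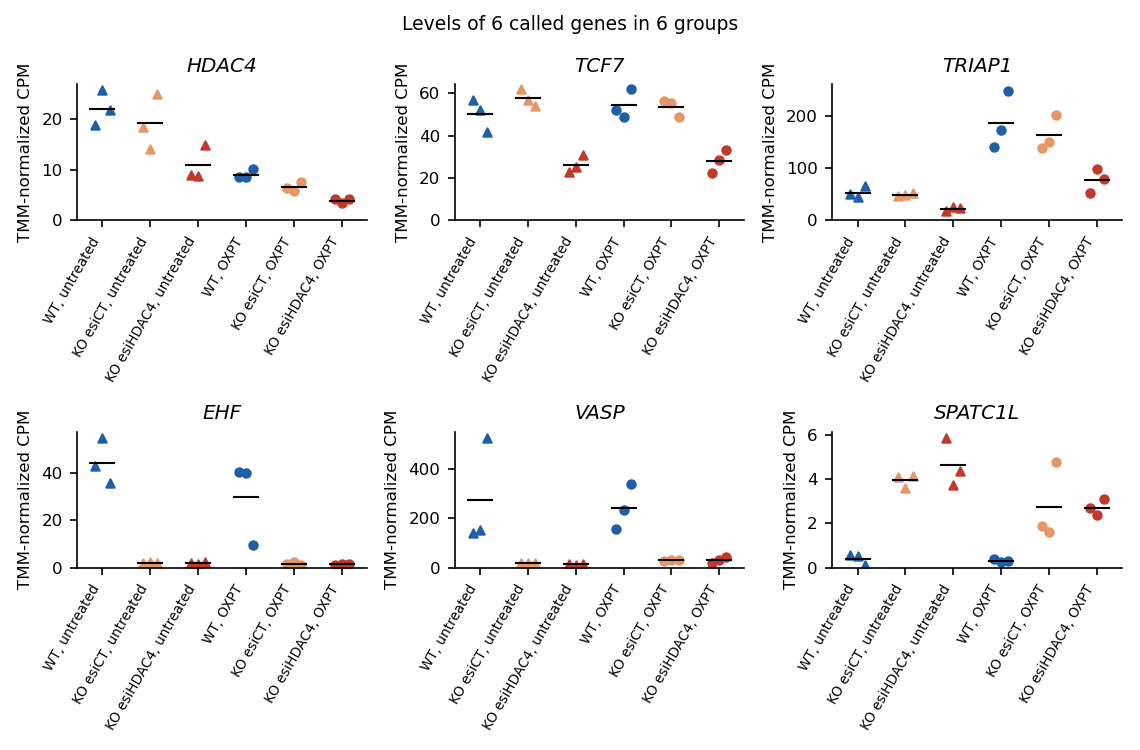
TMM-normalized CPM of 6 called genes in 6 groups of 3 libraries, untreated as triangles and OXPT as circles, WT in blue, KO esiCT in orange and KO esiHDAC4 in red; black bars are group means. TCF7 and TRIAP1 are lower in red than in orange at both treatments without overlap, HDAC4 is so with OXPT and overlaps in 1 pair of untreated libraries (14.9 in red, 14.0 in orange), while EHF and VASP are low in both KO groups, with EHF at most 2.31 CPM in all 12 KO libraries shown, and SPATC1L is higher in both KO groups than in WT.

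Over all 18 grouped KO libraries, which also include KO cells with the class IIa HDAC degrader #11, and the 6 WT libraries, 15 of the 28 genes did not overlap between the lines, against 0.186% of the genes tested. The 6 libraries compared here are part of both sets. They include ANXA10, APOBEC3G, EHF, DPEP1, VASP, SLC43A3, HTR7, KRT13, PODXL2, PALLD, MSX2, LYRM4, UBE2E3 and SPATC1L. EHF ranged up to 6.41 CPM in KO and down to 8.54 CPM in WT on a scale that was normalised over all 36 libraries.

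ANXA10 and PALLD lie 309316 bases apart on chromosome 4, and the 3 genes tested that lie between or over them had log2 fold changes of 0.66 (DDX60), 0.28 (DDX60L) and −0.10 (CBR4). LYRM4 and WRNIP1 lie 2316677 bases apart on chromosome 6, with 14 tested genes between them. The median log2 fold change of the nuclear chromosomes ran from −0.06 (chromosome 22) to 0.17 (chromosome 13), and the 16 tested genes of the mitochondrial genome had a median of −0.28.

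With the replicate block, 36 further genes were called, 29 lower and 7 higher, which are named here after their values were seen. All 36 had the same sign without OXPT, where 73.4% of all genes tested had the same sign. Without a block 8 of them were called there, beside 0.858% of all genes tested. CLDN4, a tight junction claudin, stood at 216, 227 and 391 CPM in KO esiHDAC4 OXPT and 378, 537 and 732 CPM in WT OXPT, lower in KO within each pair (blocked log2 fold change −0.99 ± 0.17, adjusted p = 0.00637 with the block and 0.377 without it). JUP, the junctional plakoglobin, had −0.75, GJB2, a connexin, −1.01, COL17A1, a hemidesmosomal collagen, −2.03, AQP3, a water and glycerol channel, −1.37, GPRC5A, a retinoic acid induced receptor, −1.08, and ELF3, an epithelial ETS factor, −1.16. OASL, an interferon-stimulated gene, had −1.62, TIMM17B, of the inner membrane import machinery, −1.83, and PMEPA1, a feedback inhibitor of TGF-β signalling, −2.35. Of the 36 genes, 7 were near WT with esiCT, below 0.5 in size without the block. Among them HARS1, SLC35A4 and GNL3L had −0.22, −0.16 and 0.04 with esiCT. With esiHDAC4 they had −0.98, −0.95 and −0.83 without the block and −0.99, −0.94 and −0.80 with it. The others were PCDH1, TNFRSF21, MT-ND1 and MSRB3, at −0.46, −0.38, −0.46 and 0.44 with esiCT without the block. In the blocked fit these had −0.94, −0.81, −0.75 and 0.96 with esiHDAC4. Higher with the block were BEX4 (1.99), KCNK9, a potassium channel (1.67), SAMD4A (1.33), FGFBP1, a carrier of fibroblast growth factors (1.21), FEZ1 (1.07) and MSRB3, a methionine sulfoxide reductase (0.96). KCNK9 stood at 9.30, 7.14 and 12.2 CPM against 3.14, 2.28 and 3.51 CPM.

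Of the 24 gene lists that were written from textbook pathways and from the study's super-enhancer genes, 20 had 0 called members, and 18 with the replicate block, under which OASL of the interferon list, MT-ND1 of the mitochondrial genome and ELF3 and MSRB3 of the group 1 super-enhancer genes were called as well. The counts and medians are given as descriptions beside the median of all genes tested, 0.02, and the 0.227% called. Of all 12353 genes tested, 5909 had a log2 fold change below 0 and 6444 above. In the class IIa HDAC list HDAC4 was the 1 called gene of 11 tested, while HDAC5 (−0.34 ± 0.20, adjusted p = 0.941) and MEF2D (−0.32 ± 0.23) were not called. Of 20 immediate early and MEF2 target genes, which signalling and MEF2 factors switch on quickly, 0 were called, 19 had a log2 fold change below 0, and the median was −0.58, beside −0.66 for KO esiCT OXPT over the same WT libraries (−0.78 without its replicate 3) and −1.09 without OXPT. EGR1 stood at 44.7, 27.7 and 69.9 CPM in KO esiHDAC4 OXPT and 65.2, 56.1 and 348 CPM in WT OXPT (−1.72 ± 0.61, adjusted p = 0.529), so that WT replicate 3 stands apart and the groups overlap. KLF4 had −1.34 ± 0.50 (adjusted p = 0.591, and 0.0564 with the replicate block), FOSL2 −0.85 ± 0.31 and JUNB −0.99 ± 0.44 (adjusted p = 0.808, and 0.0788 with the block). With the compared groups alone and the block, a fit with 389 calls, EGR1, KLF4, FOSL2 and JUNB were all called. Their adjusted p there was 0.0210, 0.00661, 0.0250 and 0.00750. Called list members were not counted under that fit.

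Among 22 FBXW7 substrates 0 were called and the median was −0.06. MYC stood at 226, 192 and 201 CPM in KO esiHDAC4 OXPT and 279, 321 and 387 CPM in WT OXPT (−0.67 ± 0.21, adjusted p = 0.352), and the groups did not overlap. In KO esiCT OXPT its log2 difference from WT was −1.26 ± 0.21 (adjusted p = 0.00784, and 0.0759 without KO esiCT OXPT replicate 3), and the difference between both KO groups, 0.58, was not called. CCNE1, cyclin E, had −0.55 ± 0.22 (adjusted p = 0.665) and NOTCH3 −0.96 ± 0.40 (adjusted p = 0.734). With the compared groups alone and the block NOTCH3 was called (−0.93, adjusted p = 0.0153), as was JUNB, which is also in this list. Of 13 tested SCF ligase genes, 22 MYC and nucleolar genes and 10 Notch targets, 0 were called, with medians of 0.25, −0.02 and −0.02.

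Of 29 p53 targets, switched on after DNA damage, TRIAP1 was the 1 called gene, and the list's median was 0.03. The proapoptotic BH3 genes PMAIP1 and BBC3 overlapped between the groups. PMAIP1 stood at 131, 89.4 and 88.8 CPM against 70.5, 109 and 182 CPM (−0.23 ± 0.39, adjusted p = 0.979), and BBC3 at 128, 147 and 148 CPM against 132, 127 and 232 CPM (−0.21 ± 0.40, adjusted p = 0.979). EDA2R, a death receptor of the TNF family that p53 induces, was at 2.61, 2.00 and 2.38 CPM against 0.811, 0.737 and 1.24 CPM (1.33 ± 0.52, adjusted p = 0.648). Among 15 BCL2 family genes and 20 caspases, death receptors and inhibitors, 0 were called, with medians of −0.04 and 0.01. XIAP, an inhibitor of caspases, had 0.66 ± 0.26 (adjusted p = 0.666) and the effector BAK1 −0.64 ± 0.30 (adjusted p = 0.831).

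The nuclear subunits of the respiratory chain (OXPHOS) had 0 called of 76 and a median of −0.05, with 51 below 0 and 25 above. KO esiCT OXPT had a median of 0.32 over the same WT libraries, and KO esiHDAC4 over KO esiCT had −0.41 with OXPT and −0.16 untreated, each with 0 subunits called. These values rest on KO esiCT OXPT replicate 3: without it the medians were −0.17 for KO esiCT OXPT over WT OXPT and 0.10 for KO esiHDAC4 over KO esiCT with OXPT, of opposite sign. COX6B1, of complex IV, stood at 96.3, 181 and 254 CPM in KO esiHDAC4 OXPT and 238, 256 and 335 CPM in WT OXPT (−0.64 ± 0.40, adjusted p = 0.955), with 0.64 for KO esiCT OXPT and −0.30 without that library. All 13 protein-coding transcripts of the mitochondrial genome had a log2 fold change below 0, with 0 called and a median of −0.31. MT-ND1, of complex I, stood at 4381, 4797 and 3477 CPM against 7963, 7317 and 5965 CPM, without overlap (−0.75 ± 0.21, adjusted p = 0.244 and 0.0485 with the block). The mitochondrial share of all counts, given above, also varied with the replicate number in both groups.

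**Figure D5:**
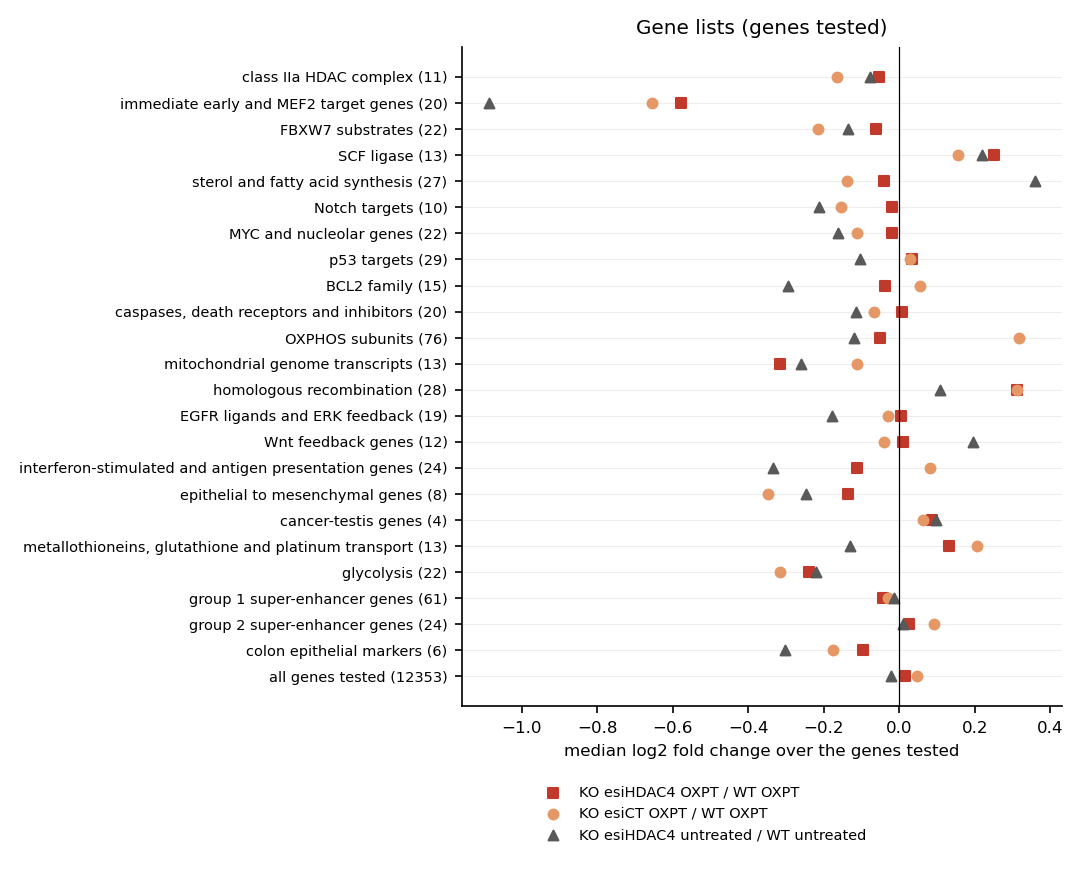
Median log2 fold change of each gene list with at least 4 genes tested (number in brackets) and of all genes tested, for KO esiHDAC4 OXPT over WT OXPT (red squares), KO esiCT OXPT over the same WT libraries (orange circles) and KO esiHDAC4 untreated over WT untreated (grey triangles). The immediate early and MEF2 list lies farthest to the left at −0.58, −0.66 and −1.09, and OXPHOS subunits lie at −0.05, 0.32 and −0.12, of which 0.32 becomes −0.17 without KO esiCT OXPT replicate 3. Orange medians that also change sign without it are those of all genes tested (0.046 to −0.050), the BCL2 family, the p53 targets, and the cancer-testis, interferon and metallothionein lists.

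Of 28 homologous recombination genes 0 were called, 22 had a log2 fold change above 0 and the median was 0.31, beside 0.31 with esiCT, which was 0.52 without KO esiCT OXPT replicate 3. Members such as BRCA2 (8.08, 7.02 and 0.493 CPM against 2.92, 1.34 and 0.658 CPM) and NBN (62.8, 38.0 and 22.2 CPM against 29.1, 25.7 and 8.04 CPM) were low in replicate 3 of both groups, and neither was called (adjusted p = 0.874 for each). Among 12 Wnt feedback genes TCF7 was the 1 called gene, and the median was 0.01. The 19 EGFR ligand and ERK feedback genes (median 0.00), 24 interferon and antigen presentation genes (−0.11), 27 sterol and fatty acid synthesis genes (−0.04), 13 metallothionein, glutathione and platinum transport genes (0.13) and 4 tested cancer-testis genes (0.09) had 0 called. Of 8 tested mesenchymal genes 0 were called (median −0.14), with CCN2 at 39.1, 33.1 and 36.3 CPM against 11.5, 14.5 and 22.5 CPM (1.16 ± 0.43, adjusted p = 0.591) and THBS1 at 0.77 ± 0.35. Glycolysis had 19 of 22 genes below 0, 0 called and a median of −0.24. SLC2A3, a neuronal type glucose transporter, stood at 25.1, 17.4 and 49.9 CPM against 84.4, 57.7 and 47.7 CPM (−1.04 ± 0.48, adjusted p = 0.828), and at −2.64 in KO esiCT OXPT over WT OXPT (adjusted p = 0.0303). That last call was lost in 4 of 24 fits with 1 library dropped, namely replicate 1 or 2 of either group. Without KO esiCT OXPT replicate 3 the log2 difference was −3.29.

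The study linked 2 groups of genes to super-enhancers that lose (group 1) or gain (group 2) H3K27ac after HDAC4 silencing in KO cells with OXPT. It chose them on data of these cells, so they are not independent evidence of a direction. Of 61 tested group 1 genes ANXA10 was called, 9 were lower and 2 higher at an unadjusted p under 0.05, and the median was −0.04. HS3ST1, a heparan sulfate sulfotransferase, stood at 31.9, 27.4 and 36.4 CPM against 43.9, 51.3 and 65.7 CPM (−0.75 ± 0.20, adjusted p = 0.230), and MSRB3 at 8.93, 9.63 and 6.08 CPM against 4.59, 4.22 and 3.73 CPM (0.97 ± 0.22, adjusted p = 0.0922). Of 24 tested group 2 genes 0 were called, and the median was 0.03. IRF2BPL had −0.85 ± 0.28 (adjusted p = 0.421) and PDP1, which activates pyruvate dehydrogenase, 0.93 ± 0.38 (adjusted p = 0.708).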

How the data were processed

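PolyA RNA-seq counts were taken from the authors' deposited tables, 1 per library, which hold raw counts per gene, whole numbers without normalization, for 62757 Ensembl identifiers in columns without strand and for either strand. The submitters' processing notes name hg38, Trimmomatic 0.39 and STAR 2.7.11a; the annotation behind the counts is not given in the sources used here. A different route, salmon followed by DESeq2, is described in the paper's methods. Forward and reverse totals were nearly equal (ratio 1.00 to 1.02 in the 24 grouped libraries), so reads carry no strand and the column without strand was used, in place of a strand setting. Reads where genes overlap, also on opposite strands (RUNX2 and SUPT3H, TCF7 and SKP1), are left out by such counting as ambiguous (10.6% to 12.2%). Positions and symbols came from GENCODE 44 (GRCh38), which held 62130 of the identifiers with their version and 62639 without it.

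Groups came from the labels. Of 36 libraries, 24 form 8 groups of 3, and 12 WT libraries with opposite OXPT states in their labels entered no comparison. The labels do not say that replicates are separate cultures. The paper's general statement on figures speaks of independent experiments without naming the RNA-seq, so p-values measure the spread between these libraries, which may be technical. All 24 pairs of replicates differed by more than sampling noise (chi-square per degree of freedom 8.31 to 224 over genes with at least 20 counts).

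Analysis used R 4.3.3 with edgeR 4.0.16: TMM, 1 coefficient per group over 24 libraries, and the quasi-likelihood F test. Genes needed a mean count of at least 64 in 1 group. A call was a fold change above 1.5 with p below 0.05 after Benjamini-Hochberg adjustment across all tested genes; chromosome Y genes and XIST were then left out. Standard errors were approximated by dividing the log2 fold change by the root of its F. Adjusted p-values in the text come from this edgeR fit unless another is named. In a simulated version of the comparison with 12356 genes, 23% of genes changed 2-fold and 85% of those changed 4-fold were recovered, with 6 unchanged genes called. Replicate numbers count as pairing the libraries, and the number was used as a block in a further fit. Blocked values are given for the calls and for some genes, while other genes have the unblocked value only. The deviations of same-numbered libraries correlated at 0.51 to 0.83 in the main comparison and above 0.1 in the others (0.23 to 0.79). In the main comparison KO replicate 1 also correlated with WT replicate 2 (0.61), and KO replicate 2 with WT replicate 1 (0.34). Pairs of replicate 3 with another number were negative there, so these correlations do not separate replicates 1 and 2. Alternatives were DESeq2 1.42.0, RLE, reverse-strand counts, other filters, a fit of the compared groups alone, the replicate block and leaving out each library. The comparison of untreated KO groups was added after seeing the data, as were the values without KO esiCT OXPT replicate 3 and the list members called with the block.

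Named genes are HDAC4, FBXW7, PMAIP1, BBC3, up to 15 called genes per direction by fold change, and up to 4 per list by call and then p. Some genes that the rule names are not reported here. Members and lists were chosen with earlier results of these data known. Promoters are RefSeq's (GRCh38.p14; 22 of 28 called genes matched). Python 3.11.15 and matplotlib 3.10.9 drew the plots.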

Additional observations from a re-analysis of the deposited data

How the results depend on the processing

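All 28 genes called in KO esiHDAC4 OXPT against WT OXPT kept their sign under every alternative in which they were tested, and the share of lower genes among the calls, 96.4%, was 69.2% without the count filter, 81.4% with DESeq2 and 45% with the compared groups alone and the block. The number called was 70 with DESeq2, 64 with the replicate block, 120 without the count filter, 9 with 64 counts in every group, 0 with the compared groups alone (425 genes at an unadjusted p under 0.05) and 389, 214 of them higher, with the compared groups alone and the block; 28, 28, 21, 9, 0 and 26 of the 28 were among them. RLE normalization kept 27 and reverse-strand counts 18. Leaving out 1 library gave 10 to 46 calls: 10 when KO esiHDAC4 OXPT replicate 2 was dropped, 11 for its replicate 1, 13 for WT OXPT replicate 3 and 46 for WT untreated replicate 3. 7 genes were called in all 24 such fits, among them ANXA10, APOBEC3G, EHF, DPEP1, VASP and HTR7. For KO esiHDAC4 untreated against WT untreated (106) the number was 374 with DESeq2, 308 with the block, 516 without the filter, 32 with 64 counts in every group, 3 with the compared groups alone and 3 with these and the block, and 23 to 677 without 1 library: 23, 24 and 43 when KO esiHDAC4 untreated replicate 1, 2 or 3 was dropped, and 216, 677 and 36 for WT untreated replicate 1, 2 or 3. It was 65 and 69 for KO #11 OXPT replicates 1 and 2, 59 and 67 for KO #11 untreated replicates 1 and 2, 59 for KO esiCT untreated replicate 1 and 70 for KO esiHDAC4 OXPT replicate 2. For KO esiCT OXPT against WT OXPT (16) it was 30 with DESeq2, 84 without the filter, 3 with 64 counts in every group, 10 with reverse-strand counts, 0 with the compared groups alone (184 at an unadjusted p under 0.05), 2 with these and the block, 24 with the block and 9 to 21 without 1 library, lowest without KO esiCT OXPT replicate 2. For KO esiHDAC4 OXPT against KO esiCT OXPT (0) it was 13 with DESeq2 and 6 without the filter, and for the interaction (0) 40 without the filter. For KO esiHDAC4 untreated against KO esiCT untreated (1) it was 34 with DESeq2, 2 with RLE, 2 with reverse-strand counts, 3 without the filter, 0 with the compared groups alone (1712 at an unadjusted p under 0.05), 560 with these and the block, 4 with the block and 0 to 3 without 1 library, with 3 when KO esiHDAC4 OXPT replicate 1 was dropped and 0 in 18 of 24 fits. The cause of these changes was not tested. The replicate block lost none of the 28 calls. Depth limits genes such as APOBEC3G and SPATC1L, whose low group holds 15 counts or fewer in 3 libraries.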

Other observations

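The 12 WT libraries that entered no comparison carry opposite OXPT states in their labels, but the WT genotype in all entries. Their levels, with counts of all 36 libraries normalised together by TMM, are given as ranges. For 14 of the 28 called genes, all 12 lay outside the range of the 18 grouped KO libraries, among them ANXA10, APOBEC3G, EHF, DPEP1, VASP, SLC43A3, FABP6, HTR7, KRT13, PODXL2, PALLD, LYRM4 and SPATC1L. The share of all genes tested that did so was not computed. The KO range also includes the KO esiHDAC4 OXPT libraries on which the 28 were called, so this count is a description only. EHF, the epithelial ETS factor, ranged from 8.18 to 75.7 CPM (median 25.1) in these WT libraries and from 1.15 to 6.41 CPM (median 2.09) in the KO libraries. VASP ranged from 126 to 492 CPM (median 251) against 11.9 to 39.6 CPM (median 25.5). SPATC1L ranged from 0.237 to 0.858 CPM (median 0.587) against 1.58 to 5.83 CPM (median 3.95). The 8 genes that stood near WT in KO esiCT OXPT overlapped between these WT and the KO libraries. The KO range includes the KO esiCT OXPT libraries by which these genes were chosen, so the overlap follows largely from that choice. TCF7 ranged from 20.6 to 61.4 CPM (median 39.9) in the 12 WT libraries and from 22.2 to 61.0 CPM (median 47.3) in the KO libraries, and HDAC4 from 6.06 to 29.8 CPM (median 14.0) and from 3.29 to 27.02 CPM (median 14.0).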
